A study of Mus musculus with 137 samples.

Results

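The S100 proteins are small calcium-binding proteins, and 9 of their genes, S100a6, S100a14, S100a10, S100a11, S100a16, S100a13, S100a4, S100a1 and S100g, were followed here through the crypts and villi of the mouse duodenum. The members were chosen with earlier results of these data known. They were taken by gene symbol, 9 of the 21450 genes on the assay, and where a gene had several probes its probe was chosen by the highest total count over all libraries, which took 9 of the family members' 13 probes. All 9 passed the filter on low counts and were tested with 26365 of the 30146 probes. The total count served only to choose a probe and is not tested.

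Female wild-type B6C3F1 mice, a first-generation hybrid laboratory strain, drank water with hexavalent chromium, Cr(VI), given as sodium dichromate dihydrate. The water held 0, 0.1, 1.4, 5, 20, 60 or 180 ppm Cr(VI), and the intestines were taken after 7 days (called day 8) or 90 days (called day 91). Crypt and villus tissue was scraped separately from adjacent fixed, paraffin-embedded sections of each mouse, and RNA was read by TempO-Seq, in which pairs of probes ligated on their target are counted. The libraries, 71 of crypt and 66 of villus from 71 mice, fell into 28 groups by compartment, dose and day, with 5 libraries in each group except 6 in the day 8 crypt at 0.1 ppm and 4 in the day 8 villus at 5, 20 and 180 ppm and in the untreated day 91 villus. The labels give each library its mouse, and the age of the mice is not given in the sources used here.

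S100 proteins work mostly as dimers: calcium binding opens a hydrophobic face that grips partner proteins such as annexins. Most of the genes sit in one cluster, on mouse chromosome 3, while S100g lies on chromosome X. In the intestine the family is best known for S100g, calbindin-D9k, which ferries calcium through absorbing enterocytes and is a classic target of the vitamin D receptor, while S100a6, S100a10, S100a11, S100a14 and S100a16 are widely expressed in epithelia.

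Values are CPM, each probe's counts set per fixed total of the library's counts, scaled by the trimmed mean of M values (TMM). Differences are log2 fold changes with their standard errors (SE) from edgeR's quasi-likelihood test over all probes, and a difference was called where the Benjamini-Hochberg adjusted p was under 0.1. The 6 doses of each compartment and day were set against the same untreated mice, so the comparisons within a set are not independent of each other. In these bulk samples a smaller number of cells of one type and less RNA per cell cannot be told apart. Nothing in the labels beyond the mouse number marks a batch.

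Library totals ranged from 1463938 to 7199801 counts, with a median of 3592983. Among the untreated day 8 mice, the library labelled as villus of mouse 48 held 11447 CPM of Paneth cell markers, against 1254 to 5217 CPM in the other 4 villus libraries, and the library labelled as crypt of mouse 49 held 1334 CPM, against 5071 to 19414 CPM in the other 4 crypt libraries. Results that turn on these libraries are given with and without them, except the fits with the mouse as a block, which kept mice 48 and 49.

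Part of the family was higher in chromium-exposed mice, in both compartments. S100a14, S100a6, S100a16, S100a10 and S100a11 accounted for every increase called against untreated mice, the earliest by concentration was S100a6 at 5 ppm in the day 91 villus, and the greatest was S100a14 at 180 ppm in the same tissue, with a log2 difference of 5.34. S100g was the only member called lower, in the day 8 crypt at 180 ppm. S100a13, S100a4 and S100a1 gave no call at any dose. Of the 24 dose comparisons of each gene, S100a14 was called in 9, S100a6 in 8, S100a10 in 5, S100a16 in 5, S100a11 in 2 and S100g in 1.

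**Figure D1:**
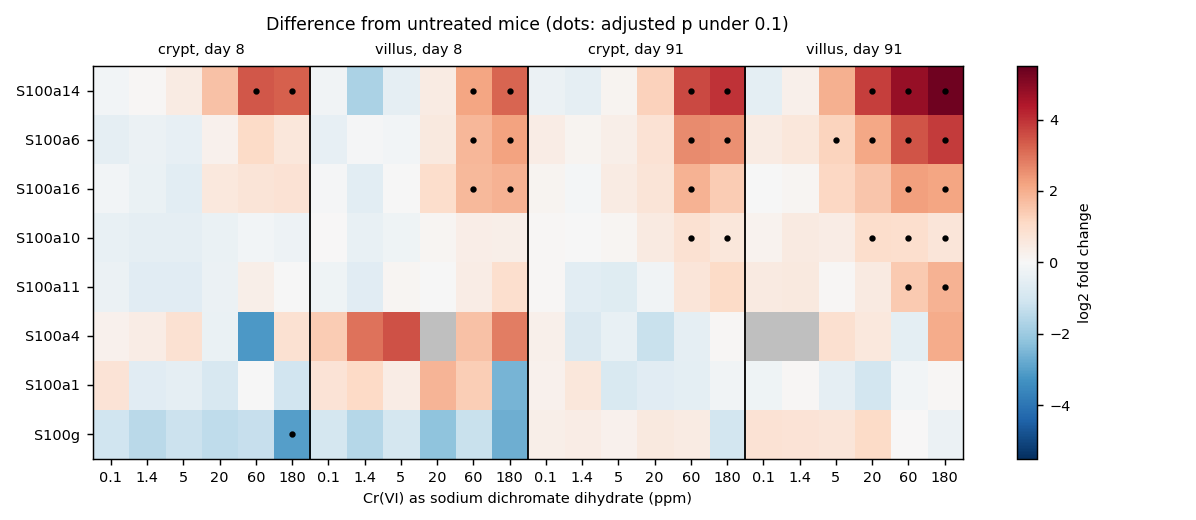
Log2 fold change of 8 members (rows) against untreated mice at each Cr(VI) concentration in ppm (columns), by compartment and day, with a dot where the edgeR adjusted p was under 0.1; grey squares had 3 or fewer counts in every library of one of the groups compared, and S100a13 is left out as nearly all its libraries held 3 or fewer counts. The dotted red squares lie at 60 and 180 ppm in the crypt, reach down to 5 ppm for S100a6 in the day 91 villus, and the only dotted blue square is S100g in the day 8 crypt at 180 ppm.

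By compartment and day the calls were unequal. As the members were chosen with earlier results of these data known, their counts beside the shares of all probes are description and no test. In the day 8 crypt 3 of the 54 member-by-dose differences were called: none at 0.1, 1.4 and 5 ppm, where 0.00379% of all probes were called at each dose, none at 20 ppm against 0.125%, 1 of 9 members at 60 ppm, where 1.33% of all probes were called, and 2 of 9 at 180 ppm, where 3.05% were. The day 91 crypt gave 7 calls, all higher: none at 0.1 to 5 ppm, where 0% of all probes were called, none at 20 ppm against 0.216%, 4 of 9 at 60 ppm against 8.85% of all probes, and 3 of 9 at 180 ppm against 3.69%; the default form of edgeR called 5 of 9 at 180 ppm, and with 1 fit for each set of a compartment and day the calls in this set were 12. The day 8 villus gave 6, all higher: none at 0.1, 1.4, 5 and 20 ppm, where 0%, 0.831%, 0.315% and 1.34% of all probes were called, 3 of 9 at 60 ppm against 6.16% of all probes and 3 of 9 at 180 ppm against 4.72%. This count was 3 with 1 fit for each set, 3 without the untreated mouse 49 or without the exposed libraries numbered 3, and up to 7 without another replicate.

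The day 91 villus gave 14 calls, all higher. These were none at 0.1 and 1.4 ppm, where 0.33% and 0.25% of all probes were called, 1 of 9 members at 5 ppm, where 11.7% of all probes were called, 3 of 9 at 20 ppm against 14.6%, 5 of 9 at 60 ppm against 14.3%, and 5 of 9 at 180 ppm against 13.9%. Over the doses with no member called edgeR gave an unadjusted p under 0.05 for 6 of 36 member differences in the day 8 crypt, 2 of 36 in the day 91 crypt, 4 of 36 in the day 8 villus and 3 of 18 in the day 91 villus, and neither DESeq2 nor the default form of edgeR called any. Of all probes, 10.8% to 12.1%, 6.71% to 11.5%, 12.9% to 21.5% and 15.6% to 16.2% had such a p at those doses, by set in the same order.

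In the day 91 villus the median log2 difference over all probes was itself above 0, at 0.475, 0.349, 0.237 and 0.118 for 5, 20, 60 and 180 ppm, while the median over the 9 members was 0.89, 1.04, 0.92 and 1.93. At 180 ppm the members' median was 0.92 in the day 8 villus, 0.60 in the day 91 crypt and -0.01 in the day 8 crypt, with medians over all probes of -0.07, 0 and -0.04. S100a13 and S100a4 enter these medians with fitted values that rest on few or no counts. With DESeq2's size factors the day 91 villus medians over all probes were 0.346, 0.0249, 0 and 0, and 12 in place of 14 member differences were called there, without S100a11 at 60 ppm and S100a10 at 180 ppm.

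The promoters of the members that rose are shown next, beside that of S100g, the member that fell, so that the letters upstream of genes that moved together can be read. They are the 250 bases before the annotated start in RefSeq on build GRCm38.p6, 5′ to 3′ along the gene; 7 of the 9 members had an entry, with 8 windows, and S100a14 and S100a10 are named only. Capitals mark 4 searched motifs, found on either strand: AP-1 (TGANTCA), the hypoxia response core (ACGTG), a loose metal response pattern (TGCNCNC) and the TATA box (TATAAA). N stands for any base, so the AP-1 and metal response letters are looser than the usual sites, TGASTCA (S for C or G) and TGCRCNC (R for A or G).
S100a6, chr3:90612644-90612893, + strand: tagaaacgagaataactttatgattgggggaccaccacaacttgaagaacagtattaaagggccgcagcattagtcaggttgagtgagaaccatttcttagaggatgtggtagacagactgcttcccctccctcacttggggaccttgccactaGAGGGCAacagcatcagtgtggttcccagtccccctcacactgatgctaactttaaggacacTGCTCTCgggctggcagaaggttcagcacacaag
S100a16, upstream start, chr3:90537004-90537253, + strand: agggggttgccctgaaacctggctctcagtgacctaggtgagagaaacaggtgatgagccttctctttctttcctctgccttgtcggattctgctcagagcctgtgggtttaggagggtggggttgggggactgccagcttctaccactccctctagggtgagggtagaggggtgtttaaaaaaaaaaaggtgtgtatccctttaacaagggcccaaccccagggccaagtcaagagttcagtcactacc
S100a16, downstream start, chr3:90540896-90541145, + strand: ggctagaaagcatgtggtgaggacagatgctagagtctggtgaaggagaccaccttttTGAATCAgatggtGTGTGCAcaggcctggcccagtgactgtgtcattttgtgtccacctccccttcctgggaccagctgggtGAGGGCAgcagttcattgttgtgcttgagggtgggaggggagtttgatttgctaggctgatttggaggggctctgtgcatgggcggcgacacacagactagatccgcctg
S100a11, chr3:93520246-93520495, + strand: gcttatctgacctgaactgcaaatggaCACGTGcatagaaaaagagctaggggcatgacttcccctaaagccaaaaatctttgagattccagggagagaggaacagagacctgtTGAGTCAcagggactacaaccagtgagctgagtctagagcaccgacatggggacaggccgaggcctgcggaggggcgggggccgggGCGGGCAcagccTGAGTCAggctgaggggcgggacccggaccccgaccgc
S100g, chrX:162964600-162964849, - strand: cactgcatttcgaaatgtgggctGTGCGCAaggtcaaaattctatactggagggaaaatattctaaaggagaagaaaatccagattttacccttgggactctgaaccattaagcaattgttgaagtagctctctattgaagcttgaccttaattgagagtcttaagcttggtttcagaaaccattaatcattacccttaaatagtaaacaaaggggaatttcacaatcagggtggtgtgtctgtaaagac

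S100a11 held 2 AP-1 matches, at -136 and -38 from the start, an ACGTG match read on both strands at -223 and -222, where the 2 readings overlap, and 1 loose metal response match at -50. The downstream S100a16 window held 1 loose AP-1 match at -192 and loose metal response matches at -179 and -110, and its upstream window held none of the motifs. S100a6 held loose metal response matches at -96 and -34, and S100g held 1 at -227. Of these metal response matches, those at -179 in S100a16 and -227 in S100g also fit TGCRCNC. Those in S100a6 and S100a11 and at -110 in S100a16 do not, nor does the S100a16 match at -192 fit the usual AP-1 site. Over the 32851 RefSeq promoter windows of the same length, 6.75% held the AP-1 letters as searched, 16.6% the hypoxia core, 44.4% the loose metal response letters and 12.4% the TATA box. Among the members with no dose call, S100a4 held loose metal response matches at -201 and -157 and a TATA box at -31, and the windows of S100a1 and S100a13 held none of the motifs. A match describes the letters in the window and is no evidence of a bound factor.

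S100a14, an epithelial member that binds the receptor for advanced glycation end products and takes part in epithelial migration, was the member called most often. In untreated day 91 villus it stood at 0, 0, 4.98 and 11.9 CPM (n = 4), and at 180 ppm at 76.4, 107, 107, 208 and 402 CPM (n = 5). Every exposed library lay above every untreated one (log2 difference 5.34, SE 0.87, adjusted p = 1.72e-06). Without 1 replicate the S100a14 difference ran from 4.80 to 6.59, the latter without the untreated villus of mouse 7, and with 2 of the 4 untreated libraries at 0 counts its size depends on the prior count. At 60 ppm the 5 libraries held 105, 116, 116, 126 and 149 CPM (log2 difference 4.78, SE 0.85, adjusted p = 1.03e-05).

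At 20 ppm in the same tissue the level of S100a14 was 37.8, 53.1, 59.2, 78.5 and 80.3 CPM, still above all untreated libraries (log2 difference 3.80, SE 0.82, adjusted p = 0.000361). At 5 ppm the libraries held 3.20, 8.76, 11.2, 16.8 and 46.9 CPM and overlapped the untreated ones, with a log2 difference of 1.96 that missed the threshold (adjusted p = 0.104). It was called without the untreated villus of mouse 7, the highest of the untreated libraries (3.16, adjusted p = 0.0281), and without mouse 241 (2.22, adjusted p = 0.0716) or 243 (2.12, adjusted p = 0.094) at 5 ppm. The medians at 0.1 and 1.4 ppm were 3.27 and 5.36 CPM, within the untreated range.

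Day 91 crypts without chromium held 0, 2.22, 9.0, 10.8 and 13.6 CPM of S100a14, and libraries at 180 ppm held 86.5, 89.6, 110.0, 120.3 and 152 CPM. The groups did not overlap, with a log2 difference of 3.96 (SE 0.72, adjusted p = 9.12e-05), close to the 3.62 at 60 ppm, where libraries ran from 74.3 to 114 CPM (adjusted p = 0.00012). At 20 ppm they ran from 11.8 to 25.9 CPM and overlapped the untreated mice (log2 difference 1.28, adjusted p = 0.452). Group medians from 0.1 to 5 ppm lay between 4.83 and 8.22 CPM, below the untreated median of 9.0 CPM.

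The rise was already present after 7 days. Untreated day 8 crypts held 0, 2.84, 4.45, 4.79 and 8.92 CPM of S100a14, against 30.9, 34.2, 47.4, 54.3 and 57.9 CPM at 60 ppm and 19.1, 26.1, 30.9, 42.9 and 86.6 CPM at 180 ppm. Neither exposed group overlapped the untreated one, with log2 differences of 3.41 (adjusted p = 0.00208) and 3.29 (adjusted p = 0.00126).

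S100a14 in the day 8 villus went from 0, 9.38, 12.2, 16.5 and 17.8 CPM in untreated mice to 72.9, 85.1, 102 and 151 CPM at 180 ppm (log2 difference 3.18, SE 0.72, adjusted p = 0.00207), with no overlap. At 60 ppm the libraries held 15.6, 35.1, 50.5, 64.9 and 89.6 CPM, the lowest of them within the untreated range (log2 difference 2.18, SE 0.68, adjusted p = 0.0485). This last call was lost without the untreated villus of mouse 47 (2.13, adjusted p = 0.103) or mouse 49 (1.87, adjusted p = 0.131), or without mouse 448 at 60 ppm (1.89, adjusted p = 0.122). Across the doses the level rose by 0.66 log2 units per dose step in the day 8 crypt, 0.59 in the day 8 villus, 0.77 in the day 91 crypt and 1.08 in the day 91 villus (adjusted p = 5.69e-08, 1.26e-06, 7.11e-10 and 3.43e-13).

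**Figure D2:**
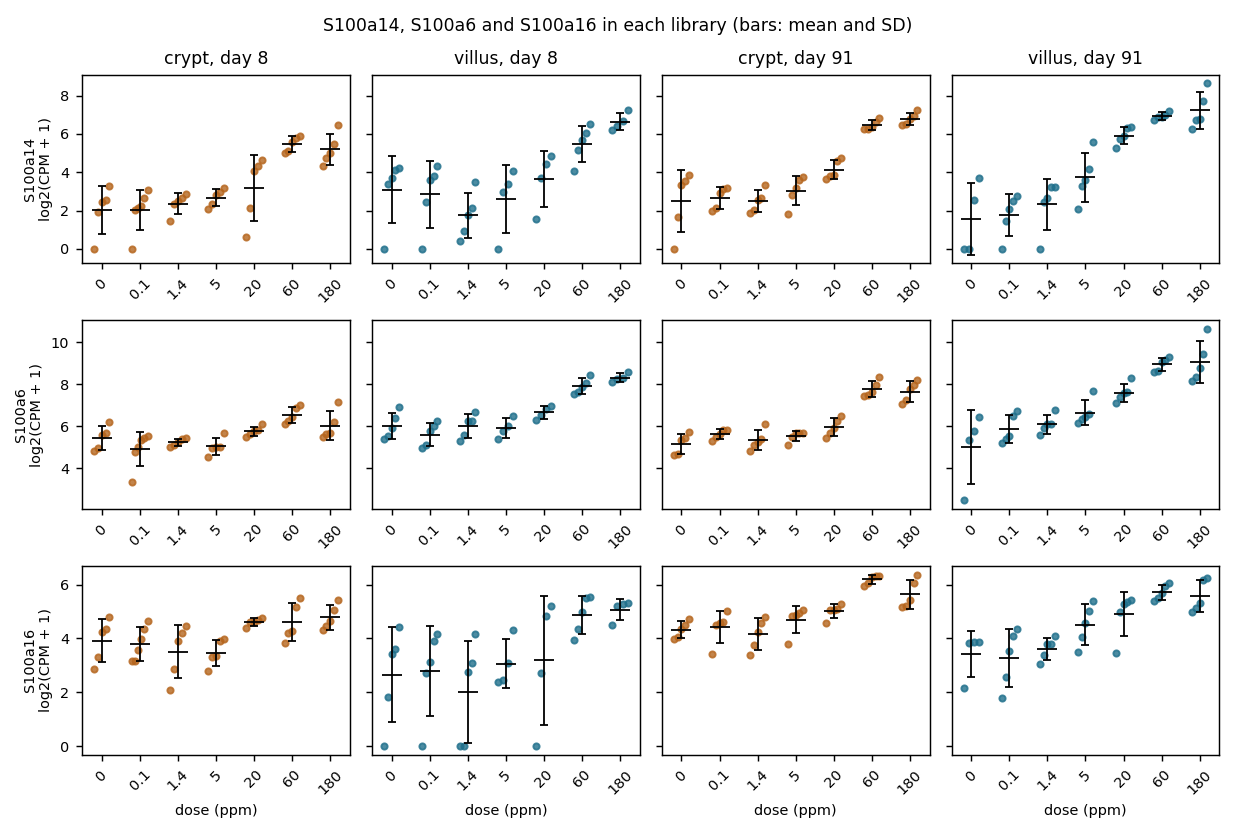
Level of S100a14, S100a6 and S100a16 as log2(CPM + 1) in every library (points, sorted by value within a dose) against Cr(VI) in ppm, by compartment and day, with bars for the mean and SD of each group. At 60 and 180 ppm the S100a14 points lie above all untreated points, except at 60 ppm in the day 8 villus, and in the day 91 villus the S100a6 points run from 70.6 to 208 CPM at 5 ppm and from 282 to 1599 CPM at 180 ppm.

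S100a6, calcyclin, is a cell cycle-linked member that binds Cacybp and annexins. Day 91 villi held 4.59, 40.2, 53.2 and 86.2 CPM in untreated mice, and the lowest of these, mouse 7, was far under the others. At 180 ppm the libraries held 282, 323, 441, 699 and 1599 CPM, and at 60 ppm 391, 395, 530.5, 577 and 636 CPM. Both groups lay clear above the untreated mice, with log2 differences of 3.87 (SE 0.42, adjusted p = 1.21e-11) and 3.46 (SE 0.42, adjusted p = 2.24e-10).

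At 20 ppm the day 91 villi held 136, 167, 192, 199.6 and 311 CPM of S100a6, again without overlap (log2 difference 2.13, SE 0.39, adjusted p = 2.44e-05). At 5 ppm they held 70.6, 80.5, 87.6, 94.7 and 208 CPM, which overlapped the untreated range (log2 difference 1.24, SE 0.38, adjusted p = 0.032). The call at 5 ppm was lost without the untreated villus of mouse 6 (1.15, adjusted p = 0.101) or mouse 7 (0.83, adjusted p = 0.169), and without mouse 244, the highest of the 5 ppm libraries (0.81, adjusted p = 0.14).

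Untreated day 91 crypts held 24.3, 25.2, 39.9, 42.8 and 52.2 CPM of S100a6. Crypts at 60 ppm held 172, 178, 195, 249 and 322 CPM and crypts at 180 ppm 132, 155, 222, 248 and 295 CPM. All 10 exposed libraries were above all 5 untreated ones, with log2 differences of 2.60 (adjusted p = 1.19e-07) and 2.51 (adjusted p = 7.23e-07). At 20 ppm, 42.1 to 90.3 CPM overlapped the untreated range (log2 difference 0.80, adjusted p = 0.406).

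At day 8 S100a6 was called in the villus and not in the crypt. In the villus, untreated mice held 41.0, 46.4, 60.0, 82.4 and 119.9 CPM, mice at 60 ppm 184, 198, 234, 269.8 and 351 CPM and mice at 180 ppm 279, 303, 319 and 388 CPM. Neither dose overlapped the untreated mice (log2 differences 1.83 and 2.21, adjusted p = 0.000275 and 1.58e-05).

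Untreated day 8 crypt libraries held 27.7, 30.3, 47.2, 51.1 and 73.9 CPM and libraries at 180 ppm 44.8, 48.3, 49.9, 74.3 and 141 CPM. The 2 highest exposed libraries stood above the untreated range, and the difference of 0.64 was not called (95% confidence interval -0.05 to 1.33, adjusted p = 0.338), nor was the 1.05 at 60 ppm (adjusted p = 0.169). The latter was called without the untreated crypt of mouse 46 (1.31, adjusted p = 0.0754) or without mouse 447 (1.18, adjusted p = 0.0859). The dose trend of S100a6 was called in all 4 sets, at 0.20 log2 units per dose step in the day 8 crypt (adjusted p = 0.00178), 0.42 in the day 8 villus (3.26e-11), 0.45 in the day 91 crypt (1.95e-12) and 0.68 in the day 91 villus (8.82e-20).

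A second S100a6 probe with a total of 17970 counts against 63198 for the first, gave log2 differences at 180 ppm of 4.41 in the day 91 villus (adjusted p = 3.11e-06), 2.68 in the day 91 crypt (adjusted p = 0.00313), 2.70 in the day 8 villus (adjusted p = 0.00353) and 0.69 in the day 8 crypt (adjusted p = 0.73). At 5 ppm in the day 91 villus this probe was not called (1.42, adjusted p = 0.133). The third S100a6 probe, with 751 counts in all, was called at 180 ppm in the day 91 villus (adjusted p = 0.096) and not in the other 3 sets. It was also called at 5 ppm in the day 91 villus (adjusted p = 0.0705), with a mean of 7.09 CPM against 3.17 CPM at 180 ppm. Both calls were made against 4 untreated libraries with 0 counts, and 2 of the 5 libraries at 180 ppm held 3 or fewer counts.

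S100a16 is an epithelial member whose level, like that of S100a14, was near the floor in some untreated libraries. In the day 91 crypt it went from 14.8, 15.4, 19.6, 21.3 and 25.6 CPM in untreated mice to 60.0, 66.1, 77.3, 79.2 and 79.3 CPM at 60 ppm. The groups did not overlap (log2 difference 1.90, SE 0.58, adjusted p = 0.024). At 180 ppm the crypts held 34.5, 35.7, 42.0, 65.2 and 81.3 CPM, also without overlap, and the log2 difference of 1.42 missed the threshold (adjusted p = 0.225), while DESeq2 (1.29, adjusted p = 0.0864), the default form of edgeR (1.41, adjusted p = 0.0183) and 1 fit for each set of a compartment and day (1.39, adjusted p = 0.00023) called it.

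S100a16 in the day 91 villus went from 3.45, 13.2, 13.5 and 13.8 CPM to 30.6, 33.8, 39.3, 71.2 and 74.2 CPM at 180 ppm (log2 difference 2.19, SE 0.65, adjusted p = 0.0167). At 60 ppm the libraries ran from 40.5 to 65.3 CPM (log2 difference 2.25, SE 0.65, adjusted p = 0.0113). Both exposed groups lay above all 4 untreated libraries. At 20 ppm the log2 difference was 1.54 (adjusted p = 0.106), and without mouse 328 it was 1.70 and called (adjusted p = 0.0866).

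S100a16 in the day 8 villus rose from 0, 2.55, 9.83, 11.1 and 20.2 CPM to 21.3, 36.1, 37.5 and 38.3 CPM at 180 ppm (log2 difference 1.90, SE 0.61, adjusted p = 0.0669), without overlap, and at 60 ppm to 14.4 to 45.6 CPM, with overlap (log2 difference 1.79, SE 0.59, adjusted p = 0.0668). Both calls were lost without the untreated villus of mouse 46 (1.61 and 1.48) or mouse 49 (1.70 and 1.56), the call at 180 ppm also without mouse 529 (1.87), and that at 60 ppm also without mouse 447 (1.61) or 448 (1.62). The dose trend of S100a16 was 0.39 in the day 8 villus, 0.30 in the day 91 crypt and 0.45 in the day 91 villus per dose step (adjusted p = 0.000239, 0.00251 and 1.23e-05), and 0.18 in the day 8 crypt, where it was not called (adjusted p = 0.157).

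S100a10, p11, forms a tetramer with annexin A2 at the cell membrane and keeps its grip without calcium. It was called at day 91 and at no dose at day 8. Untreated day 91 villi held 337, 396, 434 and 694 CPM, villi at 20 ppm 777, 795, 935, 992 and 1112 CPM and villi at 60 ppm 713, 849, 897, 953 and 1004 CPM. Neither exposed group overlapped the untreated one, although the highest untreated library came close (log2 difference 0.99, SE 0.22, adjusted p = 0.000615 at 20 ppm; log2 difference 0.92, SE 0.22, adjusted p = 0.00135 at 60 ppm).

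At 180 ppm the day 91 villi held 562 to 1051 CPM with a median of 681 CPM, lower than at 20 and 60 ppm and overlapping the untreated mice (log2 difference 0.65, SE 0.22, adjusted p = 0.0441). That call was lost with DESeq2's size factors, which moved the median of all probes from 0.118 to 0 (0.35, adjusted p = 0.27), and without the villus of mouse 5 (0.58), 6 (0.53) or 484 (0.42).

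The day 91 crypt gave S100a10 levels of 297, 303, 338, 339 and 454 CPM untreated, 559, 619.7, 637, 652 and 669 CPM at 60 ppm and 440.2, 506, 514, 535 and 637 CPM at 180 ppm. The 60 ppm libraries lay above all untreated ones (log2 difference 0.86, SE 0.20, adjusted p = 0.0019). The 180 ppm libraries overlapped them, and the difference of 0.60 (adjusted p = 0.098) passed in only 2 of the 10 fits that left out a replicate (0.53 to 0.72).

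The log2 differences of S100a10 in the day 8 crypt ran from -0.49 at 5 ppm to -0.15 at 60 ppm, all below 0, and in the day 8 villus from -0.39 at 1.4 ppm to 0.35 at 60 ppm. The dose trend was 0.14 in the day 91 crypt and 0.14 in the day 91 villus per step (adjusted p = 4.73e-05 and 6.42e-05), 0.07 in the day 8 villus (adjusted p = 0.0763, or 0.16 without the villus of mouse 48 and the crypt of mouse 49, 0.188 without the former alone and 0.111 without the villus of mouse 50) and -0.01 in the day 8 crypt (adjusted p = 1). The day 8 villus trend was called in only 4 of the 10 fits without a replicate. It was also lost without the exposed libraries numbered 1, 2, 4 or 5.

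**Figure D3:**
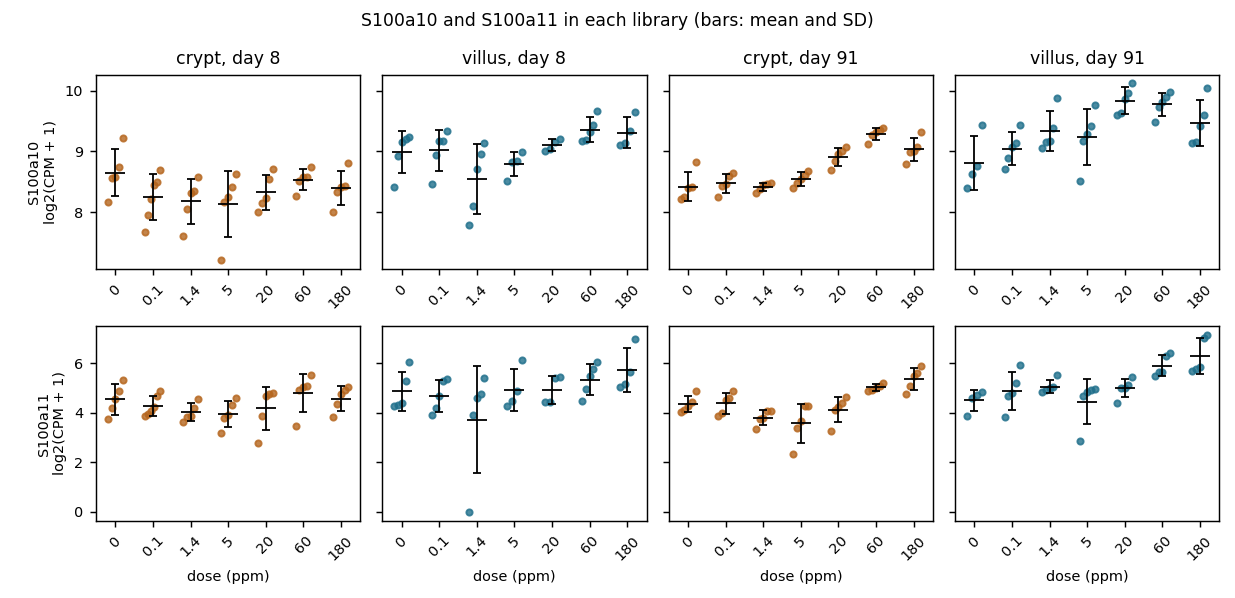
Level of S100a10 and S100a11 as log2(CPM + 1) in every library (points, sorted by value within a dose) against Cr(VI) in ppm, by compartment and day, with bars for the mean and SD of each group. S100a10 has its highest group medians at 20 and 60 ppm in the day 91 villus, at 777 to 1112 CPM and 713 to 1004 CPM, and S100a11 has its own at 60 and 180 ppm there.

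S100a11, calgizzarin, binds annexin A1 and takes part in membrane repair and keratinocyte growth control. It was called at 60 and 180 ppm in the day 91 villus, where untreated mice held 13.7, 23.3, 24.9 and 27.4 CPM. Mice at 180 ppm held 50.0, 53.7, 56.0, 127 and 139.5 CPM and mice at 60 ppm 43.7, 49.1, 49.6, 76.8 and 83.7 CPM. Both groups stood clear of the untreated ones (log2 difference 1.93, SE 0.48, adjusted p = 0.00258 at 180 ppm; log2 difference 1.43, SE 0.47, adjusted p = 0.0323 at 60 ppm).

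The 60 ppm call for S100a11 was lost without the untreated villus of mouse 5 (1.26, adjusted p = 0.13) and with DESeq2's size factors (1.06, adjusted p = 0.14). Day 91 crypts at 60 ppm, 28.4 to 35.9 CPM, lay above the untreated 15.5 to 28.2 CPM (log2 difference 0.67, adjusted p = 0.403), and at 180 ppm the difference was 1.07 (adjusted p = 0.224); neither was called. The default form of edgeR called S100a11 at 180 ppm there (1.08, adjusted p = 0.0738), as did the fit by set (1.05, adjusted p = 0.00936). The dose trend was called in the day 91 crypt (0.17 per step, adjusted p = 0.0328), the day 8 villus (0.17, adjusted p = 0.0498) and the day 91 villus (0.27, adjusted p = 0.000278). The day 8 villus trend was lost without the untreated villus of mouse 48 (0.15, adjusted p = 0.101) or mouse 50 (0.15, adjusted p = 0.102). It was also lost without the exposed libraries numbered 1 (0.087, adjusted p = 0.52). The day 91 crypt trend was lost without the exposed libraries numbered 2 (0.16, adjusted p = 0.108) or 3 (0.16, adjusted p = 0.104). A second S100a11 probe, with 1122 counts in all against 14666, was called at no dose, and its log2 difference at 180 ppm in the day 91 villus was -0.74 (adjusted p = 0.861), below 0 where the chosen probe was above it.

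The fold change at 180 ppm in the day 91 villus was 14.6 for S100a6, 4.55 for S100a16, 3.81 for S100a11 and 1.56 for S100a10. The cell type markers of these libraries moved as well. T cell markers summed to 431 to 569 CPM in untreated and 103 to 224 CPM in 180 ppm villi at day 91, fibroblast markers to 171 to 435 CPM and 407 to 684 CPM, myeloid markers to 51.1 to 127 CPM and 117 to 252 CPM, and goblet cell markers to 1116 to 2304 CPM and 2663 to 4776 CPM. The T cell list held Cd3e, Cd3d, Cd8a, Ptprc, Gzma and Gzmb. Its largest totals over all libraries were those of Gzma (76848 counts) and Ptprc (35617 counts), which is not limited to T cells. Cd3d held 10548 counts, Cd3e 7242, Gzmb 7178 and Cd8a 1283, so this sum follows mainly Gzma and Ptprc and does not count T cells. The goblet cell sum follows mainly Fcgbp (768681 counts), ahead of Clca1 (215868), Spink4 (129310) and Muc2 (80334). The part of these cell type markers in the S100 results was not tested.

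The enterocyte markers of the day 91 villi overlapped, at 46627 to 64577 CPM and 26186 to 80223 CPM. Over all libraries the largest total of that list was that of Fabp2 (15367538 counts), ahead of Apoa4 (3435266), Vil1 (2738927), Alpi (816477) and Krt20 (601407). The enterocyte sum thus follows mainly Fabp2. Fibroblast markers summed to 518 to 769 CPM untreated and 414 to 553 CPM at 180 ppm in the day 91 crypt, and myeloid markers to 48.3 to 99.5 CPM and 40.8 to 57.1 CPM, with overlap in both, and their part in the crypt results was not tested. T cell markers went from 146 to 274 CPM to 44.5 to 64.1 CPM in those crypts, and at day 8 from 292 to 900.0 CPM to 78.9 to 258 CPM in the villus.

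S100g, the vitamin D-responsive calbindin-D9k of enterocytes, moved the other way at day 8. Untreated crypts held 396, 667, 1223, 1511 and 2244 CPM and crypts at 180 ppm 39.7, 95.6, 104, 126 and 379 CPM, with the highest of the latter, mouse 526, apart from the other 4. The groups did not overlap, and S100g fell, with a log2 difference of -3.02 (SE 0.90, 95% confidence interval -4.79 to -1.25, adjusted p = 0.0441). The call was lost in 6 of the 10 fits without a replicate, those without mouse 46, 49, 527, 528, 529 or 530 (-2.92 to -2.65), and without the villus of mouse 48 and the crypt of mouse 49 (-2.88, adjusted p = 0.112). At the lower doses the crypt libraries overlapped the untreated ones, reached below them already at 0.1 ppm, and did not fall step by step. They ran from 76.6 to 1866 CPM at 0.1 ppm, 32.5 to 1166 CPM at 1.4 ppm and 49.9 to 1243 CPM at 5 ppm. At 20 ppm they ran from 37.9 to 1172 CPM, and at 60 ppm from 0 to 1354 CPM.

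In the day 8 villus S100g stood in untreated mice at 379, 2004, 2928, 5039 and 10136 CPM and in mice at 180 ppm at 510.4, 616, 690.2 and 722 CPM. The untreated library below the exposed ones is the villus of mouse 48, and the difference of -2.69 missed the threshold (95% confidence interval -4.59 to -0.79, adjusted p = 0.113). Without the villus of mouse 48 and the crypt of mouse 49 it was -2.98 (adjusted p = 0.0673), and DESeq2 called it on all libraries (-2.73, adjusted p = 0.0304). The lower doses overlapped the untreated villi and did not fall step by step. Their libraries ran from 135 to 6907 CPM at 0.1 ppm, 121 to 3523 CPM at 1.4 ppm and 167 to 5688 CPM at 5 ppm. At 20 ppm they ran from 230 to 2551 CPM, and at 60 ppm from 50.7 to 6071 CPM.

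Both day 8 dose trends of S100g were called, at -0.33 log2 units per step in the crypt (adjusted p = 0.0602) and -0.33 in the villus (adjusted p = 0.0592). The crypt trend was lost without the untreated crypt of mouse 46 (-0.29, adjusted p = 0.127) or 49 (-0.32, adjusted p = 0.113) or without the exposed libraries numbered 2, 4 or 5, and the villus trend without the untreated villus of mouse 47 (-0.25, adjusted p = 0.19) or without the exposed libraries numbered 2 or 5. At day 91 neither trend was, at -0.09 and -0.08 (adjusted p = 0.76 and 0.764). There the 180 ppm libraries ran from 185 to 1348 CPM in the crypt and 689 to 4722 CPM in the villus, overlapping the untreated 158 to 2274 CPM and 1024 to 5199.6 CPM (log2 differences -1.02 and -0.31, adjusted p = 0.686 and 0.931).

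The enterocyte marker sum was also lower in the day 8 crypts at 180 ppm, at 7369 to 14443 CPM against 20031 to 51404 CPM in untreated mice, the highest of these from the crypt of mouse 49, and its part in the S100g result was not tested. The day 8 villi summed to 20754 to 45727 CPM against 34895 to 67822 CPM. Both sums follow mainly Fabp2 and do not count enterocytes.

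S100g varied widely between mice of one group, and the crypt and villus of the same mouse varied together. After the group means were removed, log2(CPM + 1) in the crypt and villus of 66 mice gave Pearson's r = 0.857 and Spearman's rho = 0.813, each with a permutation p of 1e-05, the smallest that 100000 resamples within groups allow, and an adjusted p of 9e-05 over the 9 members. Without the 2 mice farthest from the median r was 0.855, and within days it was 0.871 at day 8 (32 mice) and 0.772 at day 91 (34 mice). Villus exceeded crypt in 64 of the 66 mice.

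For S100a10 the same measure was weaker (r = 0.367, rho = 0.432, adjusted permutation p = 0.0181 and 0.00653), at 0.461 within day 8 and 0.263 within day 91. S100a1 gave a negative value (r = -0.371, rho = -0.357, adjusted permutation p = 0.0181 and 0.0216). For S100a6 and S100a14 only rho passed (0.329 and 0.32, adjusted permutation p = 0.0323 and 0.0455; r = 0.199 and 0.278, adjusted permutation p = 0.265 and 0.202), and S100a6 had r = 0.508 within day 8 and 0.00946 within day 91. S100a11, S100a16, S100a13 and S100a4 passed on neither measure.

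**Figure D4:**
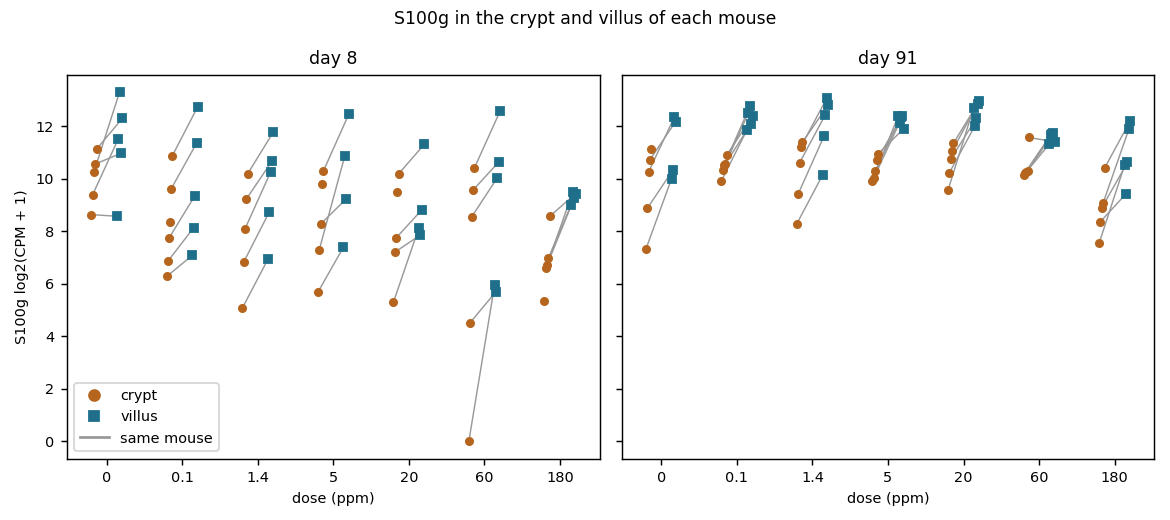
S100g as log2(CPM + 1) in the crypt (circles) and villus (squares) of each mouse against Cr(VI) in ppm, at day 8 and day 91, with a line joining the compartments of one mouse. Lines run upwards to the villus in 64 of 66 mice, and the crypt of 1 mouse at 60 ppm on day 8 held no S100g count.

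Untreated crypt and villus were compared next. In the fit without mouse pairing none of the 9 members was called at day 8, where 0.152% of all probes were, or at day 91, where 9.73% were. At an unadjusted p under 0.05 edgeR gave 3 members at day 8 (S100a14, S100g and S100a13) and 1 at day 91 (S100a10), beside 15.9% and 23.1% of all probes. DESeq2 called no member at day 8 and S100a10 at day 91 (crypt minus villus -0.60, adjusted p = 0.0264).

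With the mouse as a block, S100g was called at both days: it was lower in crypt than in villus by a log2 difference of -1.32 at day 8 (adjusted p = 0.00165, 5 mice) and -1.88 at day 91 (adjusted p = 1.72e-06, 4 mice), and lower in crypt in 4 of 5 and 4 of 4 mice. The exception was mouse 48, and the paired fit was not repeated without mice 48 and 49. No other member was called in that paired fit. Without the villus of mouse 48 and the crypt of mouse 49 the unpaired day 8 difference of S100g was -2.14 (adjusted p = 0.217). S100a16 was higher in crypt than villus in 44 of all 66 mice and in 4 of the 4 untreated mice at day 91, with an unpaired log2 difference of 0.82 that was not called (adjusted p = 0.432).

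Whether the 180 ppm effect differed between villus and crypt was tested as an interaction. None of the 9 members was called at day 8, with 0.0114% of all probes called, or at day 91, with 0.25%. At each day 1 member, S100a6, had an unadjusted p under 0.05, beside 12.3% and 12% of all probes. DESeq2 called no member. The villus effect of S100a6 exceeded the crypt effect by 1.57 log2 units at day 8 (95% confidence interval 0.57 to 2.56, adjusted p = 0.158) and by 1.36 at day 91 (adjusted p = 0.251). With the mouse as a block the day 8 difference was 1.58 and was called (adjusted p = 0.012), and that at day 91 was 1.26 and was not (adjusted p = 0.164).

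For S100a14 the day 8 value was close to 0 (-0.10, 95% confidence interval -2.03 to 1.81), an interval wide enough to hold large effects either way. Its day 91 value was 1.38 (adjusted p = 0.652).

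The effect at day 91 was set against that at day 8 in the same way. In the villus S100a6 was the only one of 9 members called, among 3.21% of all probes: its 180 ppm effect was larger by 1.66 log2 units at day 91 (95% confidence interval 0.62 to 2.70, adjusted p = 0.0884). That call was lost under each of the 6 other ways of fitting all the groups (1.40 to 1.72, adjusted p from 0.109 to 0.149) and in 10 of the 18 fits without a replicate (lowest 1.02, without mouse 485). The median over all probes of this contrast was 0.42.

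In the crypt none of the 9 members was called, beside 0.0834% of all probes. There S100a6 (1.87, adjusted p = 0.155) and S100a10 (0.88, adjusted p = 0.228) had an unadjusted p under 0.05, beside 9.5% of all probes. DESeq2 called S100a6 (1.69, adjusted p = 0.0997). Without the untreated crypt of mouse 50 (1.99, adjusted p = 0.0954) or the crypt of mouse 526 (2.27, adjusted p = 0.0487) S100a6 was called there too.

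**Figure D5:**
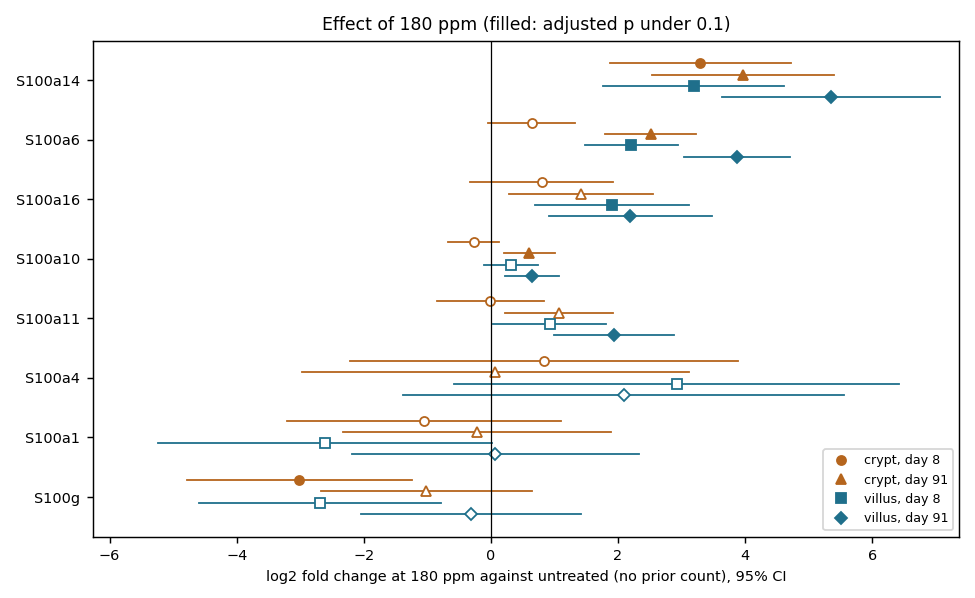
Log2 fold change at 180 ppm against untreated mice, with no prior count, for 8 members (rows) in each compartment and day, with 95% confidence intervals as lines and filled symbols where the edgeR adjusted p was under 0.1. S100a14 lies right of 0 in all 4 sets, S100a6 is filled in 3 of 4, and S100g lies left of 0 in all 4 and is filled in the day 8 crypt.

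S100a4, metastasin, marks mesenchymal and myeloid cells and binds non-muscle myosin, S100a1 is best known from heart and skeletal muscle, and S100a13 from the non-classical release of fibroblast growth factor 1. S100a13 held 3 or fewer counts in 122 libraries, S100a4 in 61 and S100a1 in 23 of the 71 crypt and 66 villus libraries, where a limit of 3 counts stands for what a library listed at 0 allows. None was called at any dose.

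S100a4 ran from 2.25 to 14.5 CPM at 180 ppm in the day 91 villus, against 0 to 5.36 CPM in untreated mice, with all 5 libraries at 0.1 ppm at 0 counts. Its dose trend there was called (adjusted p = 0.0268), but the slope depends on the prior count given to the groups at 0 and is not printed. Its second probe, with 547 counts in all, was also called (adjusted p = 0.0304). That probe had 0 counts in the groups at 0, 0.1 and 5 ppm. At 180 ppm it had 30 counts, with 3 of 5 libraries at 3 or fewer, so the call rests on few counts. S100a1 at 180 ppm was at 0 to 2.21 CPM in the day 8 villus against 0.335 to 9.35 CPM untreated, and its log2 difference of -2.55 was not called (adjusted p = 0.218), although without mouse 528 it was (adjusted p = 0.0493).

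The dose trends summed up the members by set. Called were 3 of 9 members in the day 8 crypt (8.84% of all probes), 6 of 9 in the day 8 villus (15.7%), 5 of 9 in the day 91 crypt (14.2%) and 6 of 9 in the day 91 villus (31%). S100a6 and S100a14 were called in all 4 sets, S100a10, S100a11 and S100a16 in the 3 sets other than the day 8 crypt, S100g in both day 8 sets, downwards, and S100a4 in the day 91 villus.

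Of 8 other S100 family genes on a list, 7 had a probe and 5 passed the filter. S100a5, which neighbours S100a6 and S100a4 in the chromosome 3 cluster, had 0 counts in all 4 untreated day 91 villi, and 3.95, 11.5, 22.1, 25.4 and 32.1 CPM at 180 ppm. This was at least 14.2-fold higher, taking 3 counts per library over the untreated group as the floor (1.34 CPM), and at 60 ppm at least 13.2-fold higher. The call at 180 ppm (adjusted p = 0.00969) was the only one among the 5 genes in the 4 sets at that dose, and in the dose trends S100a5 was called higher in the day 8 crypt and at day 91 in both compartments, S100a3 higher in the day 91 villus and S100a8 lower in the day 8 villus, the last pair on 128 and 124 counts over all libraries. Of all probes, 13.9% were called at 180 ppm in the day 91 villus. The dose trends called 8.84% in the day 8 crypt, 14.2% in the day 91 crypt, 15.7% in the day 8 villus and 31% in the day 91 villus.

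Along chromosome 3 the RefSeq annotation orders the genes S100a1, S100a13, S100a14, S100a16, S100a3, S100a2, S100a4, S100a5, S100a6, S100a7a, S100a8, S100a9, S100a7l2, S100a11 and S100a10. The 5 members that rose thus did not form one unbroken run: S100a14 and S100a16 are neighbours, S100a6 follows S100a5, and S100a11 and S100a10 close the list. S100a13, near the floor, lies beside S100a14, and S100a4 beside S100a5.

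The annexins and other known S100 partners were 11 listed genes that all passed the filter. At 180 ppm 1 was called higher in the day 8 crypt, 2 higher and 1 lower in the day 91 crypt, 1 higher in the day 8 villus and 2 higher in the day 91 villus. Of all probes, 3.05%, 3.69%, 4.72% and 13.9% were called in those sets, in either direction. Anxa2, the partner of S100a10, went from 283 to 387 CPM to 424 to 866 CPM in the day 91 villus (log2 difference 1.05, adjusted p = 0.00104), and rose by 0.85 in the day 91 crypt and 0.83 in the day 8 villus (adjusted p = 0.0144 and 0.0276). S100a10 itself was not called in the day 8 villus (log2 difference 0.31).

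Cacybp, which binds S100a6 and links it to ubiquitin ligases, went from 49.6 to 144 CPM to 234 to 387 CPM in the day 91 villus (log2 difference 1.70, SE 0.26, adjusted p = 2.74e-07). It also rose in the day 91 crypt, from 152 to 229 CPM to 400.0 to 467 CPM (adjusted p = 0.000556), and in the day 8 crypt (0.75, adjusted p = 0.0549). The gene called lower in the day 91 crypt was Fgf1, the cargo of S100a13 (-1.28, adjusted p = 0.0985). In the dose trends 2, 3, 3 and 4 of the 11 were called higher in the day 8 crypt, day 91 crypt, day 8 villus and day 91 villus, and 1, 1, 1 and 0 lower. The same trends called 8.84%, 14.2%, 15.7% and 31% of all probes, in either direction.

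Of the 9 listed genes of intestinal calcium transport and vitamin D, in which S100g works, 1 was called higher at 180 ppm in each set, Cldn2, and 1, 1, 2 and 4 were called lower in the day 8 crypt, day 91 crypt, day 8 villus and day 91 villus. Beside them, 3.05%, 3.69%, 4.72% and 13.9% of all probes were called in those sets, in either direction. Vdr, the vitamin D receptor, fell in all 4: in the day 8 crypt from 290.1 to 483 CPM to 90.0 to 217 CPM (log2 difference -1.41, adjusted p = 0.000551) and in the day 91 villus from 601 to 925 CPM to 133 to 495 CPM (-1.42, adjusted p = 0.000344). In the other 2 sets it fell by 1.05 in the day 91 crypt and by 1.06 in the day 8 villus on the log2 scale.

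Trpv6, the apical calcium channel, was called lower in the day 91 villus, from 7.91 to 41.7 CPM to 0 to 11.2 CPM (log2 difference -3.37, adjusted p = 0.0999), as were Atp2b1, the basolateral calcium pump (-1.38, adjusted p = 0.0361), and Cldn15 (-0.77, adjusted p = 0.0299), a claudin of the villus. Cldn2, a claudin of the leaky crypt epithelium that conducts cations and water, rose by 1.75 and 1.85 in the crypt and 2.41 and 3.03 in the villus at day 8 and day 91.

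As a description over the 28 group means of log2(CPM + 1), Pearson's r among the 10 pairs of the 5 members that rose ran from 0.381 between S100a10 and S100a16 to 0.905 between S100a6 and S100a14. The means are not independent, as crypt and villus of one dose and day come largely from the same mice, and the members share each library and its depth. These 5 members were picked because they rose over the same groups, and between S100a10 and S100g, which was not called higher at any dose, r was 0.640. Within groups, over all libraries, the S100a6 and S100a14 deviations had r = 0.179. Among 7592 genes with a mean of at least 10 CPM, the group means of S100a6 were most like those of Krt8, Fosl1 and Vdac2 (r = 0.943, 0.936 and 0.934), and those of S100a14 like Mboat1, Plek2 and Krt18 (0.944, 0.934 and 0.928).

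The other profiles most alike were St14, Pgm1 and Sptlc2 for S100a10 (r = 0.961, 0.951 and 0.948), Slc25a24, Tnfrsf12a and Ptpn12 for S100a11 (0.876, 0.863 and 0.845), Hprt, Hsd17b12 and Psmc1 for S100a16 (0.96, 0.939 and 0.934), and Fth1, Sult1d1 and Slc23a2 for S100g (0.975, 0.953 and 0.938). For the 3 low members the highest r was 0.711, between S100a1 and Cox14.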

How the data were processed

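Per the labels, duodenal crypt and villus were dissected from fixed sections and RNA was assayed by TempO-Seq. The authors deposited raw read counts per probe, not normalized, for 71 crypt and 66 villus libraries, and left out libraries of low depth or gene diversity before deposit. The submitters' processing notes name bcl2fastq (2.17.1.14) and Bowtie, and the genome build behind the probes is not given in the sources used here. Library totals ran from 1463938 to 7199801 counts, so a count of 3 or fewer was taken as the floor, and totals cover counting error only.

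The 28 groups of compartment, dose and day were fitted together with edgeR (4.0.16, R 4.3.3): TMM scaling, filterByExpr, trended dispersion and the quasi-likelihood test, with Benjamini-Hochberg adjustment over 26365 probes and a threshold of 0.1. The dose trend is the log2 change per step of dose rank. Alternatives were DESeq2 (1.42.0, local dispersion fit) and its size factors in edgeR, the default form of edgeR, no filter, counts thinned to the smallest total, a separate fit per compartment and day, and leaving out the villus of mouse 48 and the crypt of mouse 49. Leaving out a replicate removed 1 untreated library, or the same-numbered exposed library of every dose at once. The fitting script was tested on simulated data.

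The mouse numbers in the sample titles pair crypt and villus of 1 animal, so mouse was also used as a block. The pairing was checked on the members, where S100g deviations of crypt and villus had r = 0.857 over 66 mice. Replicates are separate mice. The members and lists were chosen with earlier results of these data known. Named genes are the 9 members, genes of 3 lists that passed at 180 ppm or in the trend, and for each member the 3 genes of at least 10 CPM whose group means correlated best with its own. Permutation tests, promoter searches and plots used Python 3.11.15.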

Additional observations from a re-analysis of the deposited data

Results flagged for a closer look

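In 16 of 214 groups of libraries the highest or lowest value of a member stood far from the rest by Dixon's criterion, which chance meets in about 1 in 20 groups; 12 of the 16 were high values. For S100g the high libraries were mouse 526 in the day 8 crypt at 180 ppm (379 CPM), mouse 402 in the day 91 crypt at 60 ppm (3047 CPM), mouse 368 in the day 8 villus at 20 ppm (2551 CPM) and mouse 448 in the day 8 villus at 60 ppm (6071 CPM). S100a6 was high in mouse 244 in the day 91 villus at 5 ppm (208 CPM), S100a10 in mouse 7 in the untreated day 91 crypt (454 CPM), and S100a11 in mouse 164 in the day 91 villus at 1.4 ppm (44.7 CPM).

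S100a11 was low in mouse 245 in the day 91 villus at 5 ppm (6.33 CPM). S100a16 was low in mouse 245 in the day 91 crypt at 5 ppm (12.98 CPM), in mouse 528 in the day 8 villus at 180 ppm (21.3 CPM) and in mouse 6 in the untreated day 91 villus (3.45 CPM). S100a4 was high in mouse 289 in the day 8 crypt at 5 ppm (22.2 CPM), mouse 403 in the day 91 crypt at 60 ppm (3.82 CPM) and mouse 488 in the day 91 villus at 180 ppm (14.5 CPM). S100a1 was high in mouse 209 in the day 8 crypt at 1.4 ppm (8.57 CPM) and mouse 128 in the day 8 villus at 0.1 ppm (19.98 CPM).

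The 180 ppm effect on S100a6 in the villus differed between the days, being larger at day 91 by 1.66 log2 units (edgeR adjusted p = 0.0884 over all probes), a call that other settings lost.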

How the results depend on the processing

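Summed over the 6 doses of each set, the counts of members called, and those of the trends, stayed within 1.5 times of the reported ones under DESeq2, DESeq2's size factors in edgeR, the default form of edgeR, no filter, thinned counts and leaving out the villus of mouse 48 and the crypt of mouse 49. At single doses the count changed by more than 1.5 times from 1 to 2 at 60 ppm in the day 8 crypt (DESeq2, default edgeR), 3 to 5 at 180 ppm in the day 91 crypt (default edgeR), 1 to 2 at 5 ppm in the day 91 villus (DESeq2, thinned counts) and 2 to 1 at 180 ppm in the day 8 crypt without those libraries. Smaller changes at 180 ppm included 3 to 4 in the day 91 crypt (DESeq2) and the day 8 villus (DESeq2, default edgeR), and 5 to 4 in the day 91 villus (DESeq2). At 20 ppm in the day 91 villus the count went from 3 to 4 (default edgeR). With 1 fit for each set of a compartment and day, the calls went from 7 to 12 in the day 91 crypt and from 6 to 3 in the day 8 villus, and the day 8 villus trends from 6 to 3; the cause was not tested. The replicate block by mouse gave 1 member called between untreated crypt and villus at day 8 and 1 at day 91 (S100g), and 1 in the day 8 villus minus crypt effect (S100a6), against 0, 0 and 0 without the pairing; it changed no other call, and the dose and day comparisons set different mice against each other, so no block could be used there. Between untreated compartments at day 91, DESeq2 and its size factors each called 1 member (S100a10). DESeq2 called 1 member in the crypt day comparison (S100a6), and the 1 call in the villus day comparison became 0 under DESeq2, its size factors, no filter, thinned counts, the default form of edgeR and without the libraries of mice 48 and 49.

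Leaving out 1 replicate gave 2 to 3 calls in the day 8 crypt, 6 to 7 in the day 91 crypt, 3 to 7 in the day 8 villus and 12 to 15 in the day 91 villus. The day 8 villus count was 3 without the untreated mouse 49 or without the exposed libraries numbered 3. The trends gave 2 to 3, 4 to 5, 4 to 6 and 6 to 6, the compartment comparisons and the villus minus crypt effects 0 to 0, and the day comparisons 0 to 1 in crypt and 0 to 1 in villus. S100a11 at 180 ppm in the day 8 crypt, at -0.01, was 0.0491 under DESeq2, 0.0495 with its size factors, 0.00607 with no filter, 0.0330 in the fit by set and -0.15 to 0.24 without a replicate. S100g at 180 ppm in the day 91 villus, at -0.31, was -0.703 to 0.0854 without a replicate, the latter without the untreated mouse 6. S100a13 held 3 or fewer counts in 122 libraries.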
